A study of Homo sapiens with 4 samples.

Results

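The genes examined here encode the subunits of RNA polymerase I, II and III, with a few dedicated initiation factors and the mitochondrial RNA polymerase. They were taken by symbol: every gene whose symbol begins with POLR1, POLR2 or POLR3 and goes on with a letter, together with POLRMT, UBTF, RRN3, TAF1A, TAF1B, TAF1C, TAF1D, BRF1, BRF2, BDP1 and MAF1. The rule took 42 of the 18417 genes that had a probe set with 1 gene symbol, and the brightest such probe set stood for each gene. It also took POLR1HASP, an antisense RNA at the POLR1H locus, which is no subunit and is described by itself, so that 41 subunit and factor genes remained. The POLR2J copies POLR2J2 and POLR2J3 had no probe set of their own and are not analysed here. Expression was measured in MiaPaCa2, a cell line from a human pancreatic ductal adenocarcinoma, on Human Gene 1.0 ST arrays. One group held 2 arrays of cells given vehicle and the other 2 arrays of cells given LY101-4B at 50 µM, each for 24 h. The labels name no genetic change, and both groups were the same line in medium with fetal calf serum. The design text calls the replicates biological without saying how they were grown, so p-values measure the spread between these samples. The series title calls the compound an E2F inhibitor. A protocol entry carried by the same samples names LY101-4D at 25 µM, whereas the titles, agent labels and design text give LY101-4B at 50 µM.

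RNA polymerase I (Pol I) transcribes the long ribosomal RNA precursor in the nucleolus, and its output limits how many ribosomes a growing cell can build. Pol II makes messenger RNAs, and Pol III makes transfer RNAs and other small RNAs. Each enzyme is built around a catalytic pair of large subunits, and some small subunits are shared, either between Pol I and Pol III or by all 3 enzymes. Pol I is brought to ribosomal DNA by UBTF, by the SL1 complex (TBP with TAF1A to TAF1D) and by RRN3. Pol III is placed by TFIIIB (TBP, BDP1 and either BRF1 or BRF2) and held back by MAF1.

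The deposited values are log2 expression levels from RMA, which forces the arrays to nearly one distribution, so that every change is relative to the bulk of probe sets. Column medians lay between 5.88 and 5.97, and replicate arrays correlated at r of 0.994 or more across genes, against 0.981 or less between groups. The epithelial keratin genes KRT8 and KRT18 and the mesenchymal gene VIM were brighter than 99.4% of tested probe sets or more. The epithelial adhesion genes EPCAM (3.94 ± 0.24 log2 units in vehicle, SD, n = 2) and CDH1 (4.49 ± 0.07) were dim, at or below the level that 16.2% of probe sets fell under. PTPRC of leucocytes was dim as well (3.51 in vehicle), and of the fibroblast genes DCN was dim (3.46) and COL1A1 brighter than 56.9% of probe sets (6.88). With LY101-4B, KRT8 and KRT18 fell (-0.84 and -0.57), while the keratin gene KRT19 (-0.09), EPCAM, CDH1, VIM, PTPRC, COL1A1 and DCN did not pass.

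With LY101-4B, 16 of the 42 genes fell, 3 rose and 23 did not pass at a limma adjusted p under 0.05. Over all 21214 tested probe sets 10.5% were called lower and 9.10% higher. The polymerase genes are bright, with 41 of 42 in the brighter 50% of tested probe sets, where the same fit called 18.9% lower and 14.4% higher. The median difference was -0.29 log2 units over the 42 genes, against 0.01 over all tested probe sets and -0.02 over that brighter 50%. Both LY101-4B arrays lay below both vehicle arrays for 29 of the 42 genes and above them for 7, where 29.5% and 28.5% of all tested probe sets did so. Among the 10607 probe sets of that brighter 50%, 4357 lay below and 3632 above in this way. Fewer cells that express a gene and less of its transcript per cell cannot be told apart in bulk RNA. By enzyme, the median difference was -0.81 for the 6 genes of Pol I alone, -0.46 for the 5 subunits shared by all 3 enzymes, -0.25 for the 9 genes of Pol III alone and -0.11 for the 8 genes of Pol II alone. These medians were -0.89, -0.47, -0.29 and -0.11 on the first LY101-4B array against the vehicle mean and -0.69, -0.44, -0.16 and -0.11 on the second. The difference between enzymes was not tested.

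Below, adjusted p-values are also given with 1 array left out. Such a fit leaves 1 array in a group, has 1 residual degree of freedom and estimates its variances anew. Lower calls over all tested probe sets became fewer without either vehicle array or without LY101-4B replicate 1. They became more without LY101-4B replicate 2. The differences themselves changed by at most 0.15 log2 units among the 19 called genes (POLR1F), and lay between 0.73 and 1.27 times those with all arrays. These genes were called on the same arrays, which favours replicates that lie close together and so small changes here. The small changes are thus no support for a call. A missed threshold in such a fit does not by itself show that a call rested on the array left out.

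**Figure D1:**
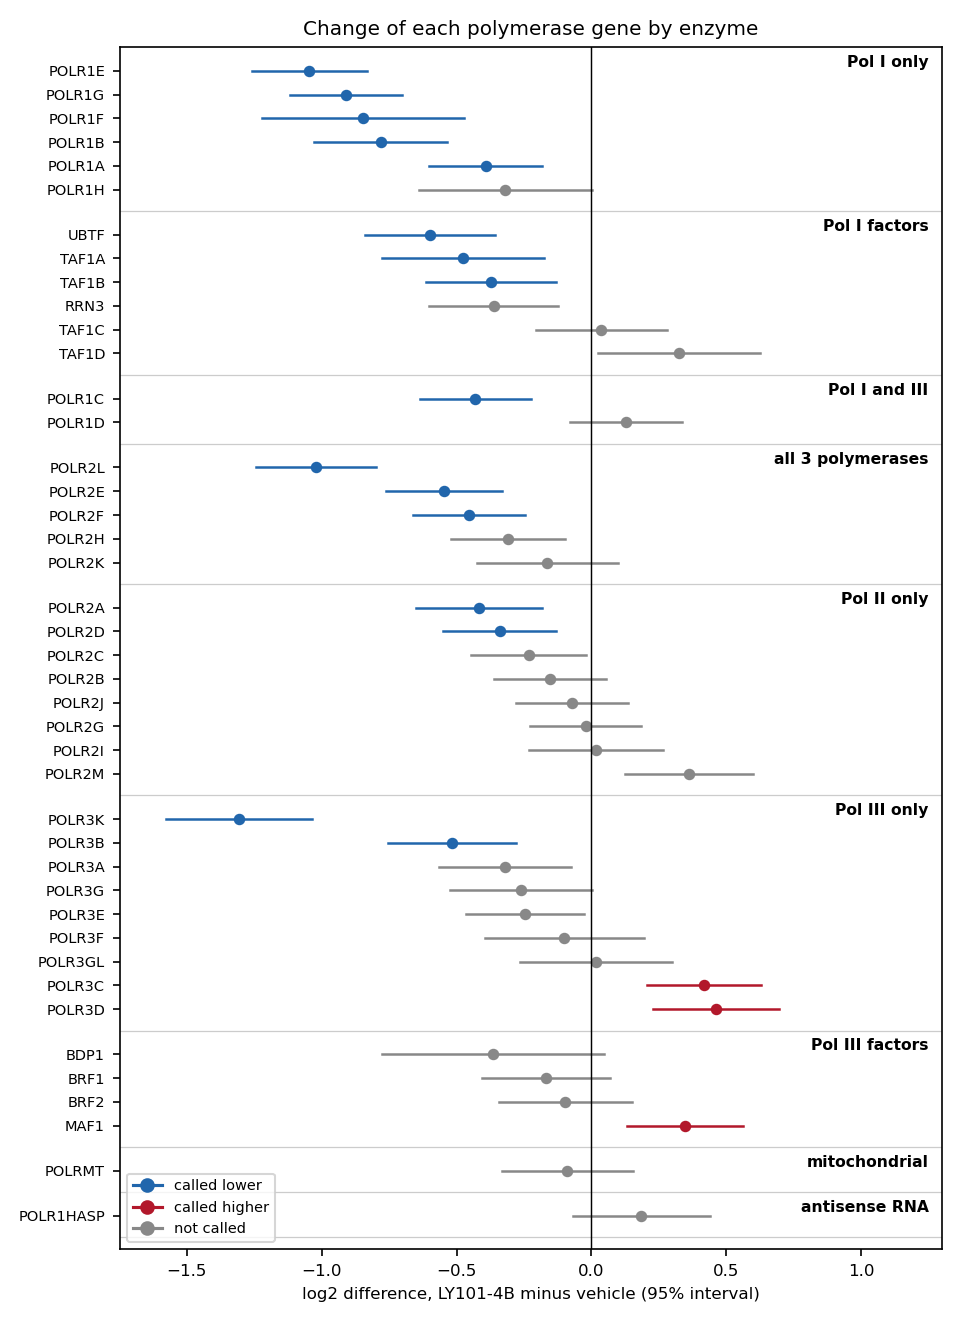
Log2 difference between LY101-4B and vehicle for each of the 42 genes, with its 95% interval from limma, grouped by enzyme; blue marks genes called lower, red genes called higher and grey genes that did not pass. All 6 genes of Pol I alone lie left of 0, while the Pol III genes run from -1.31 for POLR3K to 0.46 for POLR3D.

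Promoter windows from RefSeq (GRCh38.p14, 250 bases before to 50 after the start) were held for 32 of the 42 genes. The windows of 4 genes that fell are shown, because the compound is presented as an E2F inhibitor and the shared letters can be compared. Capitals mark a match to an E2F motif (TTTCCCGC, TTTGGCGC, TTTCGCGC or TTTGCCGC on either strand) in POLR1F and POLR2A, to the E-box CACGTG in POLR1G, and to the last 7 letters of an E2F motif in POLR3K, the gene with the largest fall. They lie at chr16:53559-53858 (minus strand) for POLR3K, chr7:19708988-19709287 (minus strand) for POLR1F, chr17:7484116-7484415 (plus strand) for POLR2A and chr19:45406394-45406693 (plus strand) for POLR1G.
POLR3K: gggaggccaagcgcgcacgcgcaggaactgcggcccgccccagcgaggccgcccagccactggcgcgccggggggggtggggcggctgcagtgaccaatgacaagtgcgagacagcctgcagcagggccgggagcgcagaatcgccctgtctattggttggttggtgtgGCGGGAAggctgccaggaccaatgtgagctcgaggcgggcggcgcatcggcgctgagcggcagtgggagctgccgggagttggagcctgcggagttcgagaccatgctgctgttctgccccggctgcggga
POLR1F: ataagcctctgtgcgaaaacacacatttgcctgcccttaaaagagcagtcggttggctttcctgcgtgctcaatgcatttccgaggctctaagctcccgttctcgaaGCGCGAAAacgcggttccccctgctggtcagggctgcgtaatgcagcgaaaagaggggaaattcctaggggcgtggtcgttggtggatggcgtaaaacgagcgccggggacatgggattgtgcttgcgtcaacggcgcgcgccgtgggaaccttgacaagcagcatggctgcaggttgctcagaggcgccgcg
POLR2A: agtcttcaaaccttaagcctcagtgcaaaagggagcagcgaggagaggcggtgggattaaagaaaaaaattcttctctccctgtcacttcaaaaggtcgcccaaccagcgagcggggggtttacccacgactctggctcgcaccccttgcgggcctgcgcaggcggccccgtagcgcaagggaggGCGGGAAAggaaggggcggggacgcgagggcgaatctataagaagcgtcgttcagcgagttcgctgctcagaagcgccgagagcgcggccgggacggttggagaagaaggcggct
POLR1G: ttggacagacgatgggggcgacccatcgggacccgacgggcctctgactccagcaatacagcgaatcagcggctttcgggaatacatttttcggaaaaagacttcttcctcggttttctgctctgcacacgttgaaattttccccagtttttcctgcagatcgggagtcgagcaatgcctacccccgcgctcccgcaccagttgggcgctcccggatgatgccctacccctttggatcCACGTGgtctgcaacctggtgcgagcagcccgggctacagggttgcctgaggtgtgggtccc

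The E2F match centred 139 bases before the start in POLR1F and 61 bases before it in POLR2A, both on the opposite strand, and the E-box of POLR1G centred 9 bases before it. Among genes with a window, 2 of 32 held one of the E2F motifs (6.25%), as did 3.99% of the 27305 genes in the RefSeq table. The E-box stood in 4 of 32 (12.5%, against 8.77% of all genes), namely POLR1G, POLR3A, POLR3C and POLR3E. The last 3 are among the 7 genes of Pol III alone that had a window. Of the 4, POLR1G fell, POLR3C rose, and POLR3A and POLR3E did not pass. The element TGATGCAA, known from amino acid response genes, stood in 0 of 32 windows and in 1.08% of all genes. The 7-letter E2F core is the same 4 motifs without their first T, so that each lies within its 8-letter motif. In a search for it, added after the data were seen, 9 of 32 genes had a match (28.1%), against 15.3% of all genes. A gene with more than 1 window, as 10 of the 32 have, offers more places for a match. Counted by window, 22.2% of their 45 windows had a match, against 13% of all windows. The genes with a match were 4 of the 15 with a window that fell (POLR1F, POLR2A, POLR2E and POLR3K), 4 of 16 that did not pass and POLR3C, which rose. These matches are letters in a window and not measured binding sites.

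Genes of Pol I alone fell in 5 of 6 cases. POLR1E, which pairs with POLR1G in a dimer that aids initiation and elongation, read 9.67 and 9.70 log2 units in vehicle and 8.68 and 8.61 with LY101-4B. That is a 2.07-fold fall (-1.05 ± 0.09 log2 units, SE; limma adjusted p 0.0016). Its partner POLR1G read 7.94 and 7.95 in vehicle and 7.03 and 7.04 with LY101-4B, a 1.88-fold fall (adjusted p 0.002). In both partners the replicate arrays lay close together and far from the other group. POLR1F, the stalk subunit that contacts RRN3, read 8.70 and 8.99 in vehicle and 7.84 and 8.15 with LY101-4B, a 1.80-fold fall (adjusted p 0.0151). The replicate arrays of POLR1F lay apart in both groups, without overlap between groups. The catalytic subunits fell as well. POLR1B, the second largest subunit, read 9.44 and 9.52 in vehicle and 8.61 and 8.78 with LY101-4B, a 1.72-fold fall (adjusted p 0.0052). POLR1A, the largest subunit, read 9.37 and 9.33 in vehicle and 8.94 and 8.97 with LY101-4B, a 1.31-fold fall (adjusted p 0.027). POLR1H, which helps the enzyme cleave RNA, was the member that did not pass (-0.32 ± 0.13). It read 8.48 and 8.38 in vehicle and 7.95 and 8.27 with LY101-4B, and passed without LY101-4B replicate 2 (adjusted p 0.0397). Its groups did not overlap, but the LY101-4B arrays lay far apart. POLR1E, POLR1G and POLR1B passed without any one array (adjusted p 0.0094 to 0.0396). POLR1F missed the threshold without vehicle replicate 2 or LY101-4B replicate 1 (adjusted p 0.0696 and 0.057) and with all 33297 rows tested (0.0587). For POLR1A it rose above 0.05 without either vehicle array (0.203 for replicate 1 and 0.162 for replicate 2) or without LY101-4B replicate 1 (0.0631), under cyclic loess (0.0533) and with all rows (0.0743).

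**Figure D2:**
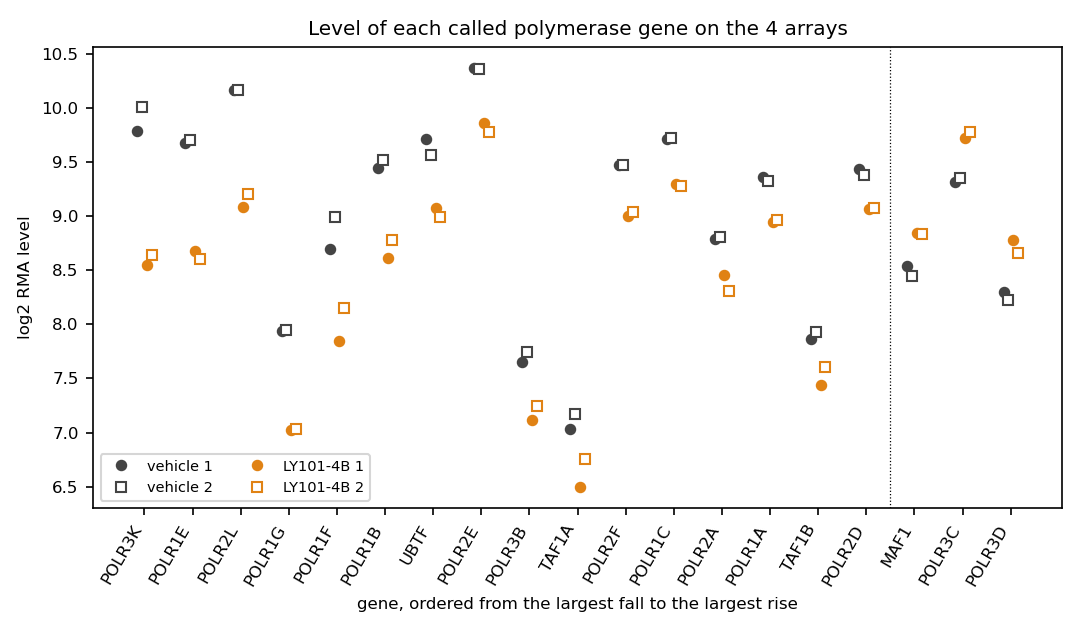
Log2 RMA level of the 19 called genes on each of the 4 arrays, ordered from the largest fall to the largest rise; circles and squares are replicates 1 and 2, dark for vehicle and orange for LY101-4B, and the dotted line separates falls from rises. No vehicle and LY101-4B values overlap for these genes, which were called on the same arrays, so the separation is no further support. Of all tested probe sets, 29.5% were likewise separated downward and 28.5% upward. The gap is widest for POLR3K, POLR1E and POLR2L.

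Among the 6 Pol I initiation factors 3 fell and 3 did not pass. UBTF, which binds along ribosomal DNA and bends it, read 9.71 and 9.56 in vehicle and 9.08 and 9.00 with LY101-4B, a 1.51-fold fall (-0.60 ± 0.10 log2 units, SE; limma adjusted p 0.0109). The SL1 subunit gene TAF1A read 7.03 and 7.18 in vehicle and 6.50 and 6.76 with LY101-4B (1.39-fold, adjusted p 0.0447). TAF1B read 7.87 and 7.93 in vehicle and 7.44 and 7.60 with LY101-4B (1.29-fold, adjusted p 0.0492). Both SL1 calls were thus close to the threshold. RRN3, the growth-regulated factor that makes Pol I competent to start, read 10.11 and 10.14 in vehicle and 9.68 and 9.84 with LY101-4B. Its difference of -0.36 ± 0.10 did not pass (adjusted p 0.0519), although the groups did not overlap. RRN3 passed with median centring (0.0335), with the brighter 50% of probe sets (0.0157), with an intensity trend (0.0083) and without LY101-4B replicate 2 (0.0379). The other SL1 subunit genes TAF1C (0.04, or -0.01 with median centring) and TAF1D (0.32) did not pass. UBTF lost its call when vehicle replicate 1 was left out (adjusted p 0.0929). TAF1A lost its call without either vehicle array (0.119 for replicate 1 and 0.233 for replicate 2) or LY101-4B replicate 1 (0.113), as did TAF1B (0.198, 0.268 and 0.115). With all rows tested these genes missed it too (0.116 and 0.117), and TAF1B also with a robust prior (0.0515).

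The assembly platform shared by Pol I and Pol III is a pair of proteins, of whose genes POLR1C fell and POLR1D did not pass. POLR1C read 9.71 and 9.72 in vehicle and 9.29 and 9.28 with LY101-4B, a 1.35-fold fall (-0.43 ± 0.08 log2 units, SE; limma adjusted p 0.0195). POLR1D read 8.38 and 8.35 in vehicle and 8.50 and 8.48 with LY101-4B (0.13 ± 0.08, adjusted p 0.365). POLR1D thus lay slightly above its vehicle arrays on both LY101-4B arrays, without passing. POLR1C missed the threshold without vehicle replicate 1 or 2 (adjusted p 0.142 and 0.15) and with all rows tested (0.0598).

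Of the 5 subunits that stand in all 3 enzymes, 3 fell and 2 did not pass. POLR2L, a small zinc-binding subunit at the base of every enzyme, had the largest fall: it read 10.16 and 10.16 in vehicle and 9.09 and 9.20 with LY101-4B. This was 2.03-fold (-1.02 ± 0.09 log2 units, SE; limma adjusted p 0.0019). POLR2E, which lines the DNA entry side, read 10.37 and 10.36 in vehicle and 9.86 and 9.78 with LY101-4B (1.46-fold, adjusted p 0.0102). In both genes the vehicle arrays were almost equal. POLR2F read 9.47 and 9.47 in vehicle and 9.00 and 9.03 with LY101-4B (1.37-fold, adjusted p 0.0166). POLR2H (-0.31, adjusted p 0.0575) and POLR2K (-0.16, adjusted p 0.357) had non-overlapping groups but did not pass. POLR2H passed with median centring (0.0343), with the brighter 50% of probe sets (0.0159) and with an intensity trend (0.0056). POLR2L passed without any one array (adjusted p 0.0083 to 0.0136). POLR2E and POLR2F missed the threshold without vehicle replicate 1 (0.0858 and 0.13) or vehicle replicate 2 (0.0785 and 0.127), and POLR2F also with all rows tested (0.0545). Without those arrays the differences were -0.54 and -0.55 for POLR2E and -0.45 and -0.46 for POLR2F, as with all arrays (-0.55 and -0.46). The vehicle arrays of both genes were almost equal, so leaving 1 out could hardly move these differences.

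Of the 8 genes of Pol II alone 2 fell, by 1.33-fold and 1.27-fold, and 6 did not pass. The share lower (25%) lay near the 18.9% of the brighter 50% of tested probe sets. POLR2A, the largest subunit, which carries the repeated tail that is phosphorylated during transcription, read 8.79 and 8.81 in vehicle and 8.45 and 8.31 with LY101-4B (-0.42 ± 0.09 log2 units, SE; limma adjusted p 0.0313). POLR2D, one of the stalk pair, read 9.44 and 9.38 in vehicle and 9.06 and 9.08 with LY101-4B (-0.34 ± 0.09, adjusted p 0.0423). The other stalk gene, POLR2G, lay at -0.02 (95% interval -0.23 to 0.18) and turned to 0.07 under cyclic loess and 0.06 when quantile normalization was repeated. POLR2B, the second catalytic subunit and the brightest gene of the 42, read 11.27 and 11.26 in vehicle and 11.10 and 11.13 with LY101-4B. Its difference of -0.15 (95% interval -0.36 to 0.05) did not pass, except with an intensity trend (adjusted p 0.0491). Both catalytic genes thus lay lower on both LY101-4B arrays, POLR2A by more. The assembly pair POLR2C (-0.23) and POLR2J (-0.07, or 0.01 under cyclic loess) did not pass. POLR2C passed with the brighter 50% of probe sets (0.0431) and with an intensity trend (0.0284). POLR2I lay at 0.02 and changed sign with median centring (-0.03). POLR2M, a Pol II binding protein rather than a core subunit, lay 1.28-fold higher without passing (0.36 ± 0.10, adjusted p 0.0507). POLR2M passed under cyclic loess (0.0172), an intensity trend (0.0128), repeated quantile normalization (0.0188) and in the brighter 50% of probe sets (0.0151). Both calls were lost under several settings. POLR2D missed the threshold without any one array (adjusted p 0.278 and 0.205 without vehicle replicates 1 and 2, 0.0849 and 0.0671 without LY101-4B replicates 1 and 2). POLR2A did so without either vehicle array (0.169 for replicate 1 and 0.187 for replicate 2) or LY101-4B replicate 2 (0.0644). Both missed it under cyclic loess (0.0709 for POLR2A and 0.0947 for POLR2D), repeated quantile normalization (0.0765 and 0.089) and all rows (0.0856 and 0.1). POLR2J is nearly identical in sequence to POLR2J2 and POLR2J3, so its value may include theirs.

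Genes of Pol III alone were called in both directions, with 2 of 9 lower, 2 higher and 5 not passing. These shares (22.2% each) lay near those of the brighter 50% of tested probe sets (18.9% lower and 14.4% higher). POLR3K, a small subunit needed for RNA cleavage, termination and reinitiation, had the largest fall of the 42 genes. It read 9.79 and 10.01 in vehicle and 8.55 and 8.64 with LY101-4B, a 2.48-fold fall (-1.31 ± 0.11 log2 units, SE; limma adjusted p 0.0016). Of all tested probe sets 0.82% had a more negative difference. POLR3B, the second catalytic subunit, read 7.65 and 7.75 in vehicle and 7.12 and 7.25 with LY101-4B (1.43-fold, adjusted p 0.0169). POLR3A, the catalytic partner of POLR3B, read 8.68 and 8.60 in vehicle and 8.24 and 8.40 with LY101-4B. Its difference of -0.32 ± 0.10 did not pass (adjusted p 0.0792), although it did with an intensity trend (0.0354), in the brighter 50% of probe sets (0.0267) and after median centring (0.0486). Both catalytic genes lay below vehicle on each LY101-4B array. In the other direction, POLR3D, part of a dimer that resembles an initiation factor, read 8.30 and 8.22 in vehicle and 8.78 and 8.66 with LY101-4B, a 1.38-fold rise (adjusted p 0.023). Its dimer partner POLR3E lay at -0.25 (adjusted p 0.115), and passed with the brighter 50% of probe sets (0.0396). POLR3C, of the subcomplex that opens promoters with POLR3F and POLR3G, read 9.32 and 9.35 in vehicle and 9.72 and 9.78 with LY101-4B, a 1.34-fold rise (adjusted p 0.0232). POLR3F lay at -0.10 with overlapping groups and changed sign without LY101-4B replicate 1 (0.04).

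POLR3G and POLR3GL encode alternative forms of one Pol III subunit, of which POLR3G is known for its abundance in stem and tumour cells. POLR3G read 8.44 and 8.51 in vehicle and 8.11 and 8.32 with LY101-4B (-0.26, 95% interval -0.52 to 0.00, adjusted p 0.156). POLR3GL read 6.69 and 6.51 in vehicle and 6.52 and 6.71 with LY101-4B (0.02, 95% interval -0.26 to 0.30, adjusted p 0.942). POLR3G lay lower on both LY101-4B arrays, while the POLR3GL groups overlapped and its sign turned under median centring (-0.03), cyclic loess (-0.02) and repeated quantile normalization (-0.03). The POLR3G difference minus that of POLR3GL was -0.28, for which no p is given. POLR3K passed without any one array (adjusted p 0.0052 to 0.0131). The other calls of Pol III were less firm. POLR3B lost its call without either vehicle array (0.0816 for replicate 1 and 0.131 for replicate 2) or LY101-4B replicate 1 (0.0528), POLR3D without the same arrays (0.111, 0.169 and 0.0648), and POLR3C without either vehicle array (0.178 and 0.143) or LY101-4B replicate 2 (0.0507). With all rows tested POLR3B, POLR3D and POLR3C missed it as well (0.0577, 0.0701 and 0.0681).

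Of the 4 Pol III factors, the repressor gene MAF1 rose and the 3 TFIIIB genes did not pass. MAF1, which binds Pol III and shuts it down when nutrients are short or cells are stressed, read 8.54 and 8.45 in vehicle and 8.85 and 8.84 with LY101-4B. That was a 1.27-fold rise (0.35 ± 0.09 log2 units, SE; limma adjusted p 0.0437). MAF1 missed the threshold without any one array (adjusted p 0.183 and 0.296 without vehicle replicates 1 and 2, 0.0914 and 0.0713 without LY101-4B replicates 1 and 2), with median centring (0.0664) and with all rows tested (0.104). BDP1, the TFIIIB scaffold, read 8.78 and 8.90 in vehicle and 8.24 and 8.71 with LY101-4B (-0.37, 95% interval -0.78 to 0.05). The LY101-4B arrays of BDP1 were far apart, and BDP1 passed without LY101-4B replicate 2 (-0.60, adjusted p 0.0279). BRF1, which serves transfer RNA promoters, read 6.83 and 6.87 in vehicle and 6.60 and 6.76 with LY101-4B (-0.17, 95% interval -0.41 to 0.07). BRF2, which serves promoters of the type of the spliceosomal U6 gene, read 7.52 and 7.59 in vehicle and 7.37 and 7.55 with LY101-4B (-0.10, 95% interval -0.34 to 0.15). Both BRF genes thus differed from vehicle by less than their error allowed to call.

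POLRMT, the single-subunit polymerase of mitochondria, read 8.19 and 8.06 in vehicle and 7.97 and 8.09 with LY101-4B. Its groups overlapped, and its difference of -0.09 (95% interval -0.33 to 0.15, limma adjusted p 0.599) did not pass under any of the 14 alternatives. The antisense RNA POLR1HASP read 5.15 and 5.18 in vehicle and 5.45 and 5.25 with LY101-4B (0.19, adjusted p 0.287). It was the dimmest of the 42, and its neighbour POLR1H lay lower on the same arrays.

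Other genes that serve the polymerases were read from 6 lists with 85 of 88 entries measured, 84 of these in the brighter 50% of tested probe sets, where 18.9% were called lower and 14.4% higher. Of 9 further regulators of Pol I and ribosomal DNA, 5 fell and 4 did not pass, with a median of -0.48 log2 units, against 0.01 over all tested probe sets. DNA topoisomerase gene TOP2A fell 2.64-fold (limma adjusted p 0.0009), TCOF1, which encodes the nucleolar protein treacle, 2.32-fold (0.0019), NOLC1 1.80-fold (0.0046) and TTF1, the Pol I termination factor, 1.62-fold (0.0094). TOP2A is also a proliferation gene. Of 13 further Pol III factors, 5 fell and 8 did not pass (median -0.34). The falls included the TFIIIC subunit genes GTF3C2 (1.52-fold), GTF3C1 (1.44-fold) and GTF3C5 (1.28-fold), and GTF3A (1.38-fold). This list is named below for its promoter factors, but SSB (-0.35, not called) is not one. Of 11 genes of mitochondrial transcription and DNA maintenance, 5 fell and 6 did not pass (median -0.42), led by TFAM, which packages mitochondrial DNA and opens its promoters (1.67-fold), MTERF3 (1.65-fold), the helicase gene TWNK (1.53-fold) and MTERF4 (1.53-fold). Called or not, the 11 genes of that list ran from -0.74 to -0.11, and POLRMT itself lay at -0.09. Of 15 assembly and import factors, 3 fell, a share near that background, and 12 did not pass (median -0.27): GPN3, a GTPase gene for nuclear import of polymerase (1.74-fold), and the helicase genes RUVBL2 (1.67-fold) and RUVBL1 (1.47-fold).

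The lists of Pol II factors were mixed. Of 17 general initiation factors 1 fell, ERCC3, the translocase of TFIIH (1.34-fold, limma adjusted p 0.0222), and the other 16 did not pass (median -0.20). Of 20 elongation and pausing factors, 7 fell, 2 rose and 11 did not pass (median -0.16). SUPT16H, of the histone chaperone FACT, fell 1.75-fold (adjusted p 0.0029), and the PAF complex genes LEO1 and RTF1 fell 1.68-fold (0.0048) and 1.50-fold (0.009). TCEA1, which encodes the elongation factor TFIIS that rescues backtracked Pol II, rose 1.88-fold (adjusted p 0.0028), above every one of the 42 polymerase genes. That value is from its brightest probe set, and any other TCEA1 probe sets were not compared. TOP2A, TCOF1, NOLC1, SUPT16H, LEO1, TCEA1, TFAM and RUVBL2 passed without any one array.

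These list counts were lower in most fits without 1 array, where the differences of the 20 list genes named here changed by at most 0.21 log2 units (MTERF4). Without vehicle replicate 1 or 2, limma called 2 and 2 elongation genes lower and 1 and 1 higher, 2 and 1 mitochondrial genes lower, and 0 and 0 Pol III promoter factors (5 and 4 lower at an unadjusted p under 0.05). The same fits called 0 and 0 general factors (2 and 2 lower unadjusted), and without vehicle replicate 2 the fit called 1 assembly factor and 3 Pol I regulators lower. Without LY101-4B replicate 1 the counts lower were 3 for Pol III promoter factors, 1 for mitochondrial genes and 0 for general factors (4 unadjusted). Without LY101-4B replicate 2 they were 4 for general factors and 6 for assembly factors. GTF3C5 missed the threshold without any one array (adjusted p 0.0677 to 0.261), and GTF3C1, GTF3C2, GTF3A, RTF1 and RUVBL1 without vehicle replicate 1 (0.112, 0.0539, 0.134, 0.0682 and 0.0877) or vehicle replicate 2 (0.0873, 0.077, 0.11, 0.0708 and 0.0634). TTF1, GPN3 and MTERF3 missed it without vehicle replicate 2 (0.0649, 0.0916 and 0.145), and MTERF3 also without LY101-4B replicate 1 (0.104). Without either vehicle array or LY101-4B replicate 1, so did ERCC3 (0.163 for vehicle replicate 1, 0.15 for vehicle replicate 2 and 0.0576), TWNK (0.0749, 0.118 and 0.0503) and MTERF4 (0.134, 0.147 and 0.0554). With all rows tested ERCC3 (0.0662), GPN3 (0.0707), GTF3C1 (0.0539), GTF3A (0.0546), GTF3C5 (0.0934), MTERF3 (0.0968), TWNK (0.0712) and MTERF4 (0.111) missed the threshold, and GTF3C5 also under cyclic loess (0.0683) and repeated quantile normalization (0.0758). Over the normalizations, row filters and priors, the counts lower ran from 0 to 5 for general factors (4 unadjusted where limma called 0), from 3 to 8 for elongation genes, from 2 to 6 for assembly factors, from 1 to 8 for Pol III promoter factors and from 1 to 9 for mitochondrial genes.

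**Figure D3:**
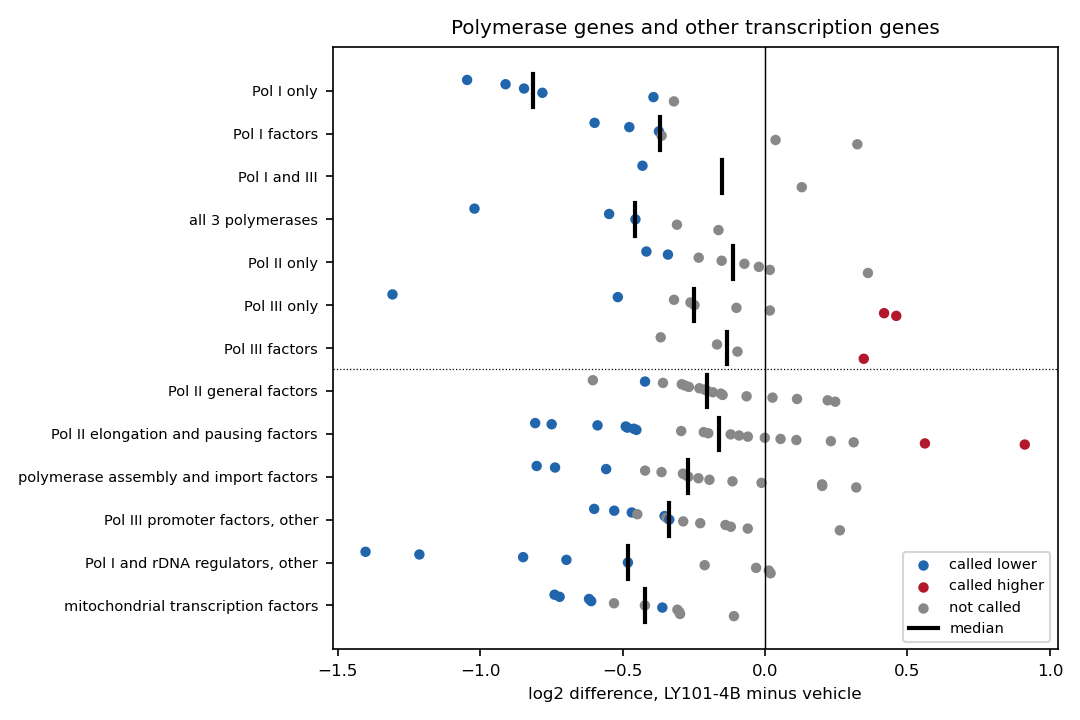
Log2 difference between LY101-4B and vehicle for the polymerase genes by enzyme (above the dotted line) and for 6 lists of other transcription genes (below it); each point is a gene, coloured by its call, and the black bar is the median. The genes of Pol I alone have a median of -0.81, and the general factors of Pol II one of -0.20.

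With each array left out in turn, the 42 genes gave 6 lower calls without vehicle replicate 1, 6 without vehicle replicate 2, 10 without LY101-4B replicate 1 and 17 without LY101-4B replicate 2. Rises numbered 0, 0, 1 and 1 in the same limma fits (3, 4, 5 and 5 at an unadjusted p under 0.05). POLR1B, POLR1E, POLR1G, POLR2L and POLR3K kept their calls in all 4 of these fits.

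**Figure D4:**
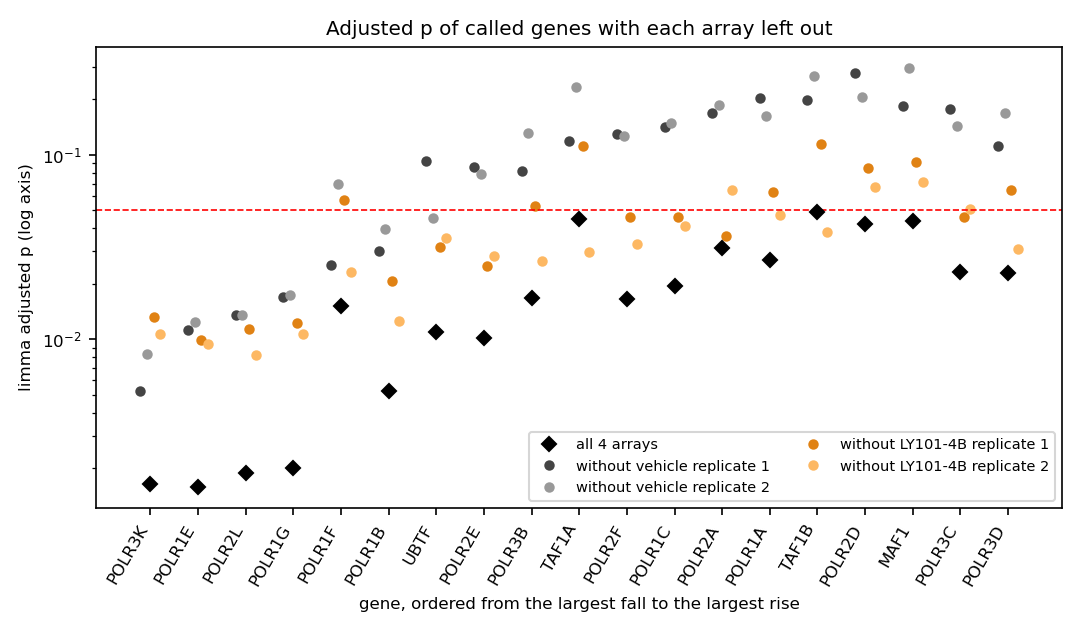
Limma adjusted p of the 19 called genes on a log axis, with all 4 arrays (black diamonds) and with each array left out in turn (coloured circles); the dashed line is the threshold of 0.05. The circles of POLR3K, POLR1E, POLR2L, POLR1G and POLR1B all lie below the line, and those of POLR2D and MAF1 all lie above it.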

How the data were processed

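Expression was measured on 4 Human Gene 1.0 ST arrays, 2 per group. The authors deposited log2 values, 1 for each probe set and array, made with RMA per the submitters' processing notes. Neither the version of RMA nor the grouping of probes is given in the labels. Of 33297 rows, 21214 had at least 1 gene symbol in the platform annotation and were tested, and 19460 with exactly 1 symbol could be named. Symbols were checked by gene ID against RefSeq (GRCh38.p14, names only; 0 changed). There were no detection calls.

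LY101-4B was compared with vehicle with R 4.3.3 and limma 3.58.1 (a linear model with eBayes, 2 residual degrees of freedom, prior worth 3.75), with Benjamini-Hochberg adjustment over the 21214 probe sets and a threshold of 0.05. Array number limits precision. By rule, values in every array are given for called members and for members with a role of their own, and folds for up to 4 called genes of each other list with the largest change. The members, lists and rules were chosen with earlier results of these data known. Alternatives were other normalizations, row filters, variance priors, a replicate block, each array left out and the mean of a gene's probe sets.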

Additional observations from a re-analysis of the deposited data

How the results depend on the processing

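Of 587 member differences recomputed under 14 alternatives, 493 kept their direction and side of the threshold, 59 lost and 21 gained a call, and 14 changed sign. The calls lower were 16 and those higher 3. With all 33297 rows tested they were 7 and 0 (4 higher at an unadjusted p under 0.05, limma), and 1271 and 1162 of all rows in place of 2236 and 1930. Leaving out 1 array gave between 6 and 17 lower calls and between 0 and 1 higher, and between 811 and 2467 tested probe sets lower and 755 and 1899 higher. Under the other normalizations, filters and priors the count lower lay between 13 and 21 and the count higher between 2 and 4. Same-numbered arrays deviated together weakly (r = 0.116 across probe sets), and nothing in the labels pairs them. The replicate block gave 15 lower and 3 higher (2312 and 2024 of all probe sets); POLR2D (adjusted p 0.0557) and MAF1 (0.0538) lost their calls and POLR2M (0.0478) gained one. The sign changed for POLR2I, POLR3GL and TAF1C with median centring (-0.034, -0.034 and -0.014), for POLR2G, POLR2J and POLR3GL under cyclic loess (0.068, 0.0053 and -0.022), and for POLR2G and POLR3GL with quantile normalization repeated (0.062 and -0.032). With 1 array left out it changed for POLR2I (-0.075 to 0.109), POLR3GL (-0.078 to 0.111), TAF1C (-0.050 to 0.124) and POLR3F (-0.245 to 0.044). None of these was called. Of 156 list counts under alternatives, 112 stayed within 1.5 times the value given. Why the other list counts moved was not tested.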

Other observations

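Probe sets that the annotation gives to several genes showed the following. TAF1D hosts small nucleolar RNAs (snoRNAs) in its introns, and its own probe set lay at 0.32 log2 units (LY101-4B minus vehicle). All 6 probe sets annotated to TAF1D and a snoRNA together lay below 0, between -0.32 and -0.08, and none passed (limma adjusted p 0.184 to 0.811). The probe sets shared by RRN3 and its pseudogenes lay between -0.23 and -0.14 (adjusted p 0.166 to 0.316), nearer to 0 than the RRN3 probe set at -0.36. The 3 probe sets that name POLR2J with its copies lay between -0.12 and -0.02 (adjusted p 0.409 to 0.884), and the 1 that names the copies without POLR2J lay at -0.20 (adjusted p 0.186). The second, dimmer probe sets of BDP1 (-0.37), POLR1H (-0.28) and POLR2M (0.30) lay close to the values given for these genes.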
